A study of Homo sapiens with 8 samples.

Results

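miR-320 and miR-484 are the best known human miRNAs that are made without Drosha. Most miRNAs are cut in consecutive steps, first in the nucleus by Drosha and its partner DGCR8, which free a hairpin from a long transcript, and then in the cytoplasm by Dicer. The hairpins of miR-320 and miR-484 skip the first cut: RNA polymerase II starts at the 5′ end of the hairpin, so that the short transcript carries a cap, is exported as it is and goes straight to Dicer. The rows hsa-miR-320a, hsa-miR-320b, hsa-miR-320c, hsa-miR-320d and hsa-miR-484 were taken by name from the deposited tables, by a rule that names no measured value. Earlier results of these data were known when the rows were chosen. Of these 5 members, 4 were listed in at least 1 table, among 945 miRNA rows, and hsa-miR-320d was listed in none. Whether a row depended on Drosha was not measured in these cells, and the paralogs of miR-320a stand with it here by name.

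The libraries were small RNA from H1299, a p53-null human line from a non-small cell lung carcinoma, sequenced on an Ion PGM. H1299/EV cells carried an empty vector and came from another laboratory, whereas H1299/R273H cells expressed mutant p53 with the R273H substitution from a CMV plasmid and were grown from colonies resistant to G418 (selected at 800 µg/ml) and kept in G418 at 400 µg/ml, which the sources give for this line only. Both lines were untreated or were given etoposide, a topoisomerase II poison that breaks DNA, for 24 h, which gave 4 groups of 2 libraries each. The labels put the etoposide dose at 10 µM in one place and at 10 mM in another, and the study calls the pairs of untreated libraries biological replicates. No source used here says how the cultures of a pair were kept apart, so that p-values measure only the spread between these libraries. The source of the cells, the growth from selected colonies and the culture in G418 differ, as far as stated, between the lines together with R273H, and cannot be told apart from it.

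Library depth ran from 213007 to 536991 miRNA reads, of which miR-21-5p took 30.6% to 44.5%. The members took 8047 of about 3.08e+06 miRNA reads over all 8 libraries, between 0.136% and 0.357% of a library. A pair of libraries stood apart from the others: H1299/EV etoposide 1 and H1299/R273H etoposide 2 had the lowest shares of miR-21-5p, at 33.5% and 30.6%, and the highest TMM factors, at 1.38 and 1.69, against 0.771 to 1.12 in the others. TMM (trimmed mean of M-values) is a scaling that sets the bulk of miRNAs equal between libraries. The part of this composition in the results below was not tested. Values without H1299/EV etoposide 1 are given for the members it moved most.

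The mature sequences are shown because the miR-320 members among them differ in very few letters, which decides what a read can say about them. They are from RefSeq, are written 5′ to 3′, and the capitals mark the seed, bases 2 to 8, which picks the target mRNAs. Sequences were matched for 4 of the 5 members. None was matched for hsa-miR-320a, so that its sequence and gene are not shown.
hsa-miR-320b: aAAAGCUGgguugagagggcaa
hsa-miR-320c: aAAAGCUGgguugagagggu
hsa-miR-320d: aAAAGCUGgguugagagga
hsa-miR-484: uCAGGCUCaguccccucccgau
The 3 miR-320 members shown share the seed AAAGCUG and their first 18 bases, and they part only at the 3′ end, with 22, 20 and 19 bases. Since reads of 17 to 35 bases were kept, a read trimmed to 18 bases or fewer cannot be placed on 1 of these rows. A read of their first 19 bases cannot be placed between hsa-miR-320b and hsa-miR-320c either, as both have a g there. The split between these rows is therefore uncertain. The split against the row of hsa-miR-320a was not assessed. miR-484 has another seed, CAGGCUC, and shares no such stretch with them. The other human miRNAs in RefSeq with a member's seed (hsa-miR-4429, hsa-miR-3155a and hsa-miR-3155b) and hsa-miR-320e were not listed in any of the 3 tables.

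The genes lie apart from each other in the genome (positions on GRCh37). MIR484 lies at chr16:15737151-15737229 on the plus strand, inside a UTR exon of NDE1, a centrosome gene on the same strand, and begins 27 bases downstream of an annotated NDE1 transcript start. Its mature miRNA takes positions 8 to 29 of the hairpin, on the 5′ arm. The miR-320 genes have the mature miRNA on the 3′ arm instead. MIR320C1 at chr18:19263479-19263550 lies opposite an intron of ABHD3, and MIR320C2 at chr18:21901639-21901710 lies opposite an intron of OSBPL1A, both on the plus strand. MIR320B1 at chr1:117214368-117214439, MIR320D1 at chr13:41301952-41302023 and MIR320D2 at chrX:140008325-140008396 overlap no other annotated gene, and MIR320B2 at chr1:224444742-224444812 lies in an intron of NVL on its strand. For the miR-320 genes named here, the nearest transcript start of a coding gene on the same strand lay from 11023 bases (MIR320B2) to 262805 bases (MIR320D2) away. The hairpins of the 2 genes for miR-320c are given since this was the one paralog beside miR-320a with more than a single read, with the mature miRNA, positions 42 to 61, in capitals.
MIR320C1: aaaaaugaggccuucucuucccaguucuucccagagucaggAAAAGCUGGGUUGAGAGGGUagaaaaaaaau
MIR320C2: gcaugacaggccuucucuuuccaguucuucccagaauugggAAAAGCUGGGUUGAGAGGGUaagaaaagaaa
Both hairpins give the same mature sequence, so that their reads were counted together.

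miR-484 was the main product, with 7128 reads or 88.6% of all reads on the members. It had 1322 and 788 reads in untreated H1299/EV, 612 and 820 in H1299/EV with etoposide, 570 and 946 in untreated H1299/R273H, and 1088 and 982 in H1299/R273H with etoposide. By reads it stood between the 32nd and the 43rd place among the miRNAs of each library. hsa-miR-320a came next, with 840 reads, which is 91.4% of the 919 reads on the miR-320 rows. Its reads in the same order of libraries were 150 and 84, 125 and 87, 44 and 86, and 127 and 137, and it stood between the 82nd and the 129th place. hsa-miR-320c had 78 reads in all: 14 and 1, 24 and 6, 1 and 14, and 7 and 11. hsa-miR-320b had 1 read, in untreated H1299/EV 1, and no read in the other 7 libraries. At these depths a count of 0 allows up to 5.92 to 14.1 RPM (reads-per-million of miRNA reads) in those 7 libraries (3 reads per library), so that a low level of miR-320b could not be seen. Thus 3 members (hsa-miR-484, hsa-miR-320a and hsa-miR-320c) passed the filter of a mean of at least 3 and were tested. Intervals and limits of this kind cover counting error only, as reads without molecular tags are not independent molecules.

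On 1 scale for all libraries, TMM-scaled CPM (counts-per-million of miRNA reads), miR-484 was at 3029 and 4057 in untreated H1299/EV. It was at 2081 and 2673 in H1299/EV with etoposide, 1637 and 2507 in untreated H1299/R273H, and 1925 and 1671 in H1299/R273H with etoposide. The order of the group means was thus untreated H1299/EV (3543 ± 727 CPM; SD, n = 2), H1299/EV with etoposide (2377 ± 418.4), untreated H1299/R273H (2072 ± 615) and H1299/R273H with etoposide (1798 ± 180), and only the first group lay above each of the others without overlap. The share of all miRNAs with that pattern was not counted. miR-320a was at 344 and 432 CPM in untreated H1299/EV and at 425 and 284 CPM in H1299/EV with etoposide. In H1299/R273H it was at 126 and 228 CPM untreated and at 225 and 233 CPM with etoposide. On this scale all 4 H1299/EV libraries were therefore above all 4 H1299/R273H libraries, a pattern found in 14.7% of the 334 miRNAs tested. Within each line the untreated and treated groups overlapped. In RPM, without TMM, the lines overlapped. miR-320a was then at 279 and 336 in untreated H1299/EV and at 587 and 240 with etoposide. In H1299/R273H it was at 97.4 and 211 RPM untreated and at 251 and 393 RPM with etoposide. miR-484 in untreated H1299/EV (2462 and 3154 RPM) also overlapped H1299/EV with etoposide (2873 and 2264 RPM). miR-320c ranged from 2.87 to 81.6 CPM, and both extremes had a partner library of the same group far from them, at 37.1 and 19.6 CPM.

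**Figure D1:**
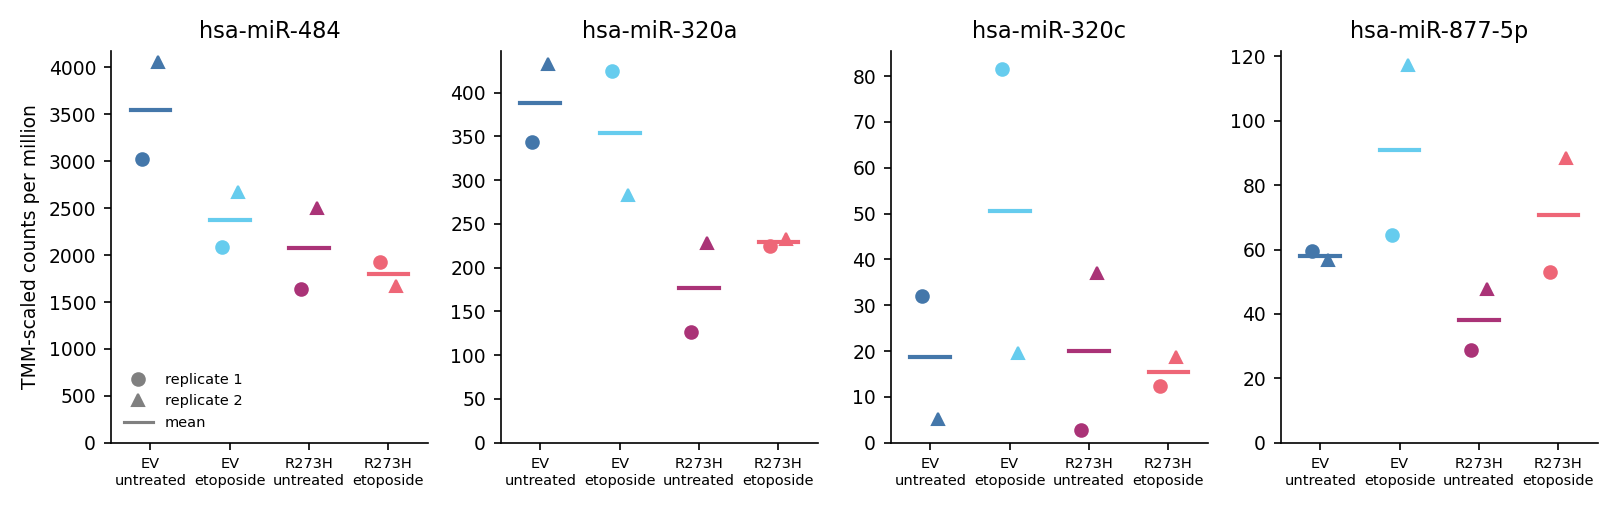
TMM-scaled CPM (linear axis from 0) of 3 members and of the mirtron hsa-miR-877-5p in the 8 libraries, with a circle for replicate 1, a triangle for replicate 2 and a bar for the mean of the 2 libraries of each group. On this scale miR-320a lies at 284 or above in all H1299/EV libraries and at 233 or below in all H1299/R273H libraries. The libraries of miR-320c scatter within groups.

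The first comparison asked which miRNAs differ with mutant p53 R273H in untreated cells. Both main members were lower in H1299/R273H, but neither passed the test. In the deposited normalized counts of this table (reads divided by the DESeq size factor of the library), miR-320a was at 104 and 134 in H1299/EV and at 45.1 and 76.4 in H1299/R273H. Both mutant libraries were below both controls, with a log2 fold change of -0.99 (SE 0.39, 95% interval -1.80 to -0.18) and a limma adjusted p of 0.0758 (unadjusted 0.0187). miR-484 was at 915 and 1256 in H1299/EV and at 585 and 841 in H1299/R273H, again without overlap. The fitted log2 fold change was -0.61 (SE 0.30, interval -1.24 to 0.02), with a limma adjusted p of 0.162. miR-320c was at 9.69 and 1.59 in H1299/EV against 1.03 and 12.4 in H1299/R273H, so that each group held a high and a low library. For this row the log2 fold change was -0.01 (SE 0.82, interval -1.72 to 1.69), an interval too wide to say whether the lines differ. At an adjusted p under 0.05, 0 of 3 members were called, against 20.4% of the 304 miRNAs tested. By the criteria of the study (unadjusted p under 0.05 and at least 2-fold) the count was also 0 of 3, against 27.3%, with miR-320a at 1.99-fold just under the limit of fold. In other fits miR-320a met these criteria. Its log2 fold change was -1.07 with DESeq2 (unadjusted p 0.0129) and -1.14 with edgeR (unadjusted p 0.00766). With limma after scaling by total miRNA reads it was -1.09 (unadjusted p 0.0379). The groups lay apart, with H1299/R273H lower, for 2 of 3 members and for 26.6% of all tested. The median log2 fold change was -0.61 for the tested members and 0.10 for all miRNAs tested. For a single row, 2 libraries against 2 cannot give an exact permutation p below 0.333, so that each p here rests on the spread shared over all miRNAs. With edgeR on the recovered reads miR-320a was called (log2 fold change -1.14, adjusted p 0.0429), where that fit also moved the median of all miRNAs by -0.18. In the other 9 alternatives that kept all 4 libraries it was lower and not called by the adjusted p.

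The same comparison under etoposide has no table of its own and was made with edgeR on the whole reads of all 8 libraries. On the TMM scale the 3 tested members were all lower in H1299/R273H in both libraries, a pattern found in 26.0% of the 334 miRNAs tested. In RPM, without TMM, the groups overlapped for each of them. miR-484 was at 2873 and 2264 RPM in H1299/EV against 2147 and 2815 in H1299/R273H, and miR-320a at 587 and 240 against 251 and 393. Scaling by total miRNA reads gave log2 fold changes of -0.05 for miR-484 and -0.26 for miR-320a, and moved the median of all miRNAs by 0.36. Only miR-320c passed the test, with 24 and 6 reads in H1299/EV against 7 and 11 in H1299/R273H (81.6 and 19.6 CPM against 12.4 and 18.7 CPM). Its log2 fold change was -1.67 (SE 0.62, interval -2.90 to -0.44; edgeR adjusted p 0.0387). Thus 1 of 3 members was called by the adjusted p, against 22.5% of all, and the same 1 of 3 by the unadjusted p with at least 2-fold, against 25.4%. Without H1299/EV etoposide 1, one of the libraries that stood apart, the log2 fold change was -0.33 and the adjusted p 0.805. The call was also lost on leaving out untreated H1299/EV 2 (adjusted p 0.0761), H1299/R273H etoposide 1 (0.293) or H1299/R273H etoposide 2 (0.123), and with DESeq2 (0.284), and a replicate block gave 0.247. miR-320a had a log2 fold change of -0.63 (SE 0.35, interval -1.32 to 0.06; edgeR adjusted p 0.205), and one of -0.32 without H1299/EV etoposide 1. miR-484 had one of -0.40 (SE 0.34, interval -1.07 to 0.26; adjusted p 0.442). Neither was called, and the intervals still hold both no change and a loss of about the size seen in untreated cells.

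Since untreated and treated cells gave the same direction for the main members, the difference between the lines was also fitted as 1 contrast over all 8 libraries, the mean of the untreated and the etoposide comparison, which was added after the data were seen. miR-320a was 1.83-fold lower in H1299/R273H, with a log2 fold change of -0.87 (SE 0.25, interval -1.37 to -0.38; edgeR adjusted p 0.00284). On the TMM scale it was the 1 of 3 tested members with all 4 H1299/R273H libraries below all 4 H1299/EV libraries, against 14.7% of all tested. In RPM the lines overlapped for miR-320a. The call held when any of the 8 libraries was left out, with a log2 fold change from -1.14 to -0.65 and an adjusted p from 3.96e-04 to 0.0450. It was lost when libraries were scaled only by their total of miRNA reads (log2 fold change -0.67, adjusted p 0.229), a scaling that moved the median of all miRNAs by 0.22. miR-484 had a log2 fold change of -0.59 (SE 0.24, interval -1.06 to -0.12; edgeR adjusted p 0.0414), and H1299/EV with etoposide overlapped untreated H1299/R273H. Its call was close to the threshold and was lost in 6 of the 8 fits that left out a library, with adjusted p from 0.0511 to 0.188, and in 6 of 7 other alternatives. Those libraries were both of untreated H1299/EV (adjusted p 0.0511 without replicate 1 and 0.180 without replicate 2), H1299/EV etoposide 2 (0.122), untreated H1299/R273H 1 (0.188), and both of H1299/R273H with etoposide (0.105 and 0.131). miR-484 was lower in H1299/R273H in each of those fits. miR-320c had a log2 fold change of -0.89 (SE 0.47, interval -1.83 to 0.04; adjusted p 0.134), which passed the test only without H1299/EV etoposide 2 (adjusted p 0.0368) or without untreated H1299/R273H 2 (0.00692), and which was 0.13 without untreated H1299/EV 1. In this contrast 2 of 3 tested members were called, against 36.8% of all 334, so that the lower level of these miRNAs was one of many differences between the lines.

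**Figure D2:**
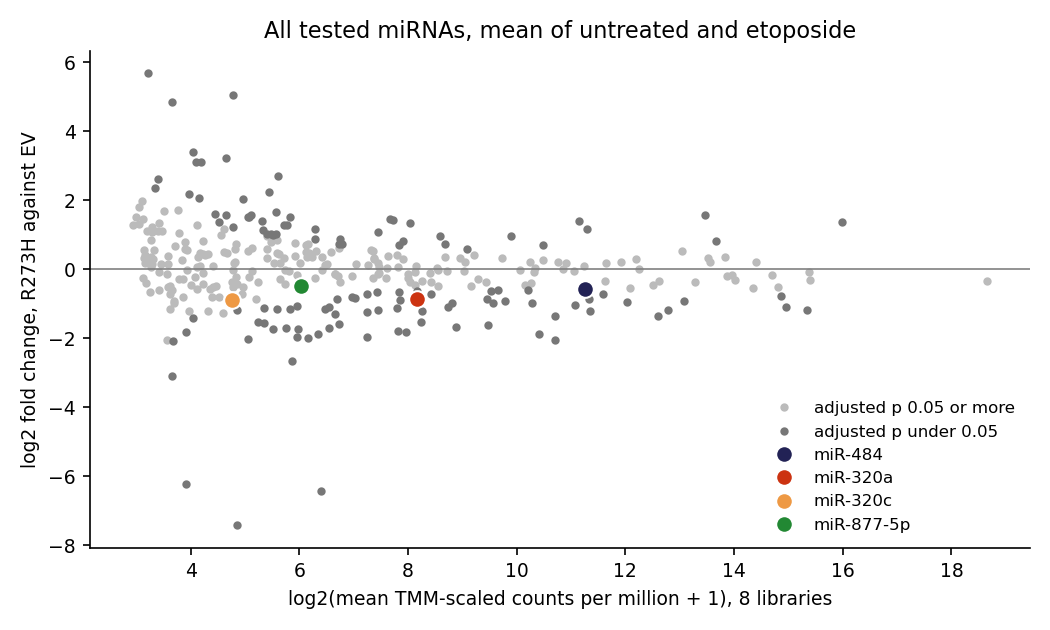
Log2 fold change of H1299/R273H against H1299/EV, averaged over untreated and etoposide, against log2(mean TMM-scaled CPM + 1) for the 334 miRNAs tested, with dark dots for adjusted p under 0.05 and coloured points for the members and hsa-miR-877-5p. miR-484 at -0.59, miR-320a at -0.87 and miR-320c at -0.89 lie within the cloud of other miRNAs of their level.

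The next comparisons asked how each line responds to etoposide. In H1299/EV no member passed the test. miR-484 was at 853 and 1193 normalized counts untreated and at 584 and 807 with etoposide, both treated libraries below both untreated ones. The difference on the log2 scale was -0.55 (SE 0.37, interval -1.27 to 0.16; limma adjusted p 0.822). miR-320a was at 96.7 and 127 untreated and at 119 and 85.6 with etoposide, which overlap, with a log2 fold change of -0.13 (interval -0.87 to 0.61; adjusted p 0.993). This value was 0.29 when libraries were scaled by their total of miRNA reads, which moved the median of all miRNAs by 0.42. miR-320c was at 9.03 and 1.51 untreated and at 22.9 and 5.90 with etoposide. Its log2 fold change of 1.36 (SE 0.70, interval -0.02 to 2.73) had an adjusted p of 0.578 and rested on few reads. It ranged from 0.36 to 2.35 with a library left out, with 0.36 without untreated H1299/EV 2 and 0.46 without H1299/EV etoposide 1. Without the latter miR-484 was at -0.32. Of 3 members, 0 were called by the adjusted p, against 0.676% of the 296 miRNAs tested, and 0 by the unadjusted p with at least 2-fold, against 6.76%. The groups lay apart with etoposide lower for 1 of 3, miR-484, and for 15.5% of all.

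In H1299/R273H no member passed the test either. miR-320a was at 58.5 and 102 normalized counts untreated and at 105 and 102 with etoposide (101.6 in the higher untreated and 101.7 in the lower treated library), so that the groups lay apart by a small part of a read. Its log2 fold change was 0.42 (SE 0.34, interval -0.32 to 1.15; limma adjusted p 0.709). This value was 1.12 under scaling by total miRNA reads, which moved the median of all miRNAs by 0.70. It ranged from 0.02 to 0.81 with a library left out. miR-484 was at 758 and 1117 untreated and at 897 and 729 with etoposide, with a log2 fold change of -0.19 (interval -0.93 to 0.56; adjusted p 0.931). Under the scaling by total miRNA reads its value was 0.52, where the median of all miRNAs moved by 0.70. miR-320c was at 1.33 and 16.5 untreated and at 5.77 and 8.17 with etoposide, with a log2 fold change of 0.30 (interval -1.39 to 1.99; adjusted p 0.964). No member was called by the adjusted p; 0% of the 341 miRNAs tested were, while 31 had an unadjusted p under 0.05, and DESeq2 called 1 miRNA. By the unadjusted p with at least 2-fold the count was 0 of 3, against 6.16%, and the groups lay apart with etoposide higher for 1 of 3, miR-320a, and for 20.5% of all.

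The difference between both responses was tested with edgeR over the 8 libraries, as an effect in one line and not in the other does not show that the lines differ. For H1299/R273H minus H1299/EV it was 0.49 for miR-320a (interval -0.50 to 1.47), 0.37 for miR-484 (interval -0.57 to 1.31) and -1.55 for miR-320c (interval -3.42 to 0.32) on the log2 scale, each with an adjusted p of 1.00. Without H1299/EV etoposide 1 the value of miR-320c was -0.32. No member and 0% of the 334 miRNAs were called, 12 had an unadjusted p under 0.05, and 3.59% also had at least a 2-fold difference, with 0 of 3 members among them. These intervals are wide enough to hold differences of more than 2-fold in the response.

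**Figure D3:**
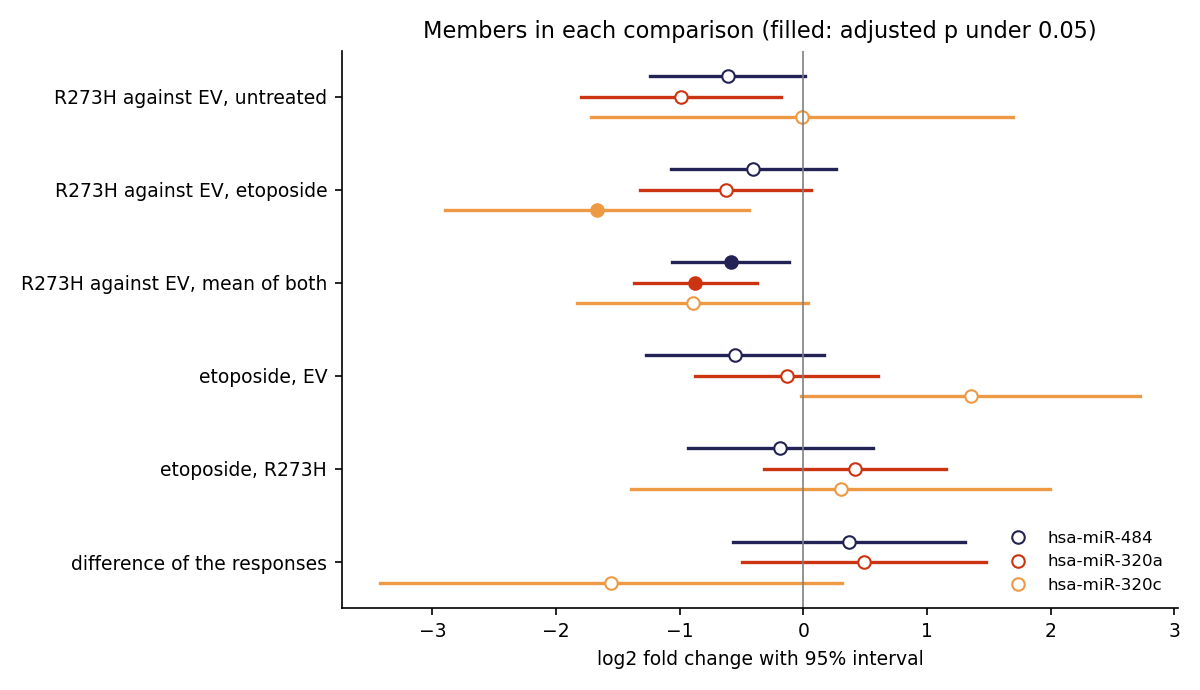
Log2 fold change with its 95% interval for miR-484, miR-320a and miR-320c in the 6 contrasts, filled where the adjusted p was under 0.05. miR-484 and miR-320a lie below 0 in each contrast of the lines, with called values only in the mean of both (-0.59 and -0.87), and the filled point of miR-320c under etoposide (-1.67) has a wide interval (-2.90 to -0.44).

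Ratios between members within a library do not depend on the scaling. There were 8.81 and 9.38 reads of miR-484 for each read of miR-320a in untreated H1299/EV and 13.0 and 11.0 in untreated H1299/R273H. With etoposide the ratio was 4.90 and 9.43 in H1299/EV and 8.57 and 7.17 in H1299/R273H. Both untreated H1299/R273H libraries were above both untreated H1299/EV libraries, and both treated H1299/R273H libraries were below both untreated ones of that line. How often the ratios of other pairs of miRNAs lie apart in this way was not counted, so that no response is read from it. In H1299/EV only replicate 1 with etoposide, one of the libraries that stood apart, was far from the others. As a share of the reads on all members, the miR-320 rows made up 19.6% in that library (95% Wilson interval 16.9% to 22.5%), against 7.32% to 13.1% in the other 7. The share of miR-320c among the miR-320 rows was 8.48% and 1.18% in untreated H1299/EV, 16.1% and 6.45% with etoposide, 2.22% and 14.0% in untreated H1299/R273H, and 5.22% and 7.43% with etoposide. In untreated cells each line held a low and a high library, whose Wilson intervals overlapped (0.208% to 6.37% and 5.12% to 13.7% in H1299/EV, 0.393% to 11.6% and 8.53% to 22.1% in H1299/R273H). Such an overlap does not show that the shares of the 2 libraries are equal, and their difference was not tested.

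Of other miRNAs made without Drosha, only a set list of mirtrons was looked at. Mirtrons are short introns that the splicing machinery frees as hairpins, which takes the place of the cut by Drosha. Of a list of 12 mirtron loci, 7 rows were listed, and only hsa-miR-877-5p, from an intron of ABCF1, had a mean of at least 3 reads, while the other 6 had at most 2 reads in a library and 14 in all. Its sequence, with the seed in capitals, shares no seed with the members.
hsa-miR-877-5p: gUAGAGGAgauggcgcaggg
It was at 59.6 and 56.6 CPM in untreated H1299/EV and at 64.6 and 117 CPM with etoposide. In H1299/R273H it was at 28.7 and 47.7 CPM untreated and at 53.1 and 88.5 CPM with etoposide. Its log2 fold change was -0.44 for H1299/R273H against H1299/EV in untreated cells (limma adjusted p 0.574) and -0.36 under etoposide (edgeR adjusted p 0.635). For etoposide it was 0.58 in H1299/EV (limma adjusted p 0.932) and 0.84 in H1299/R273H (unadjusted p 0.0443, adjusted p 0.495), so that it passed no test. hsa-miR-451a, which needs Drosha but is cut by Argonaute 2 in place of Dicer, had 8 and 3, 12 and 6, 5 and 14, and 3 and 1 reads in the 4 groups in the order above. Under etoposide it was lower in H1299/R273H, with a 95% interval of the log2 fold change from -4.67 to -1.33 (edgeR adjusted p 0.00496). This rested on 3 and 1 reads against 12 and 6. The 12 and the 1 came from the libraries that stood apart, and fits that leave out a library are not given for this row. In untreated cells the log2 fold change was 0.56 (limma adjusted p 0.544).

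The miRNAs most like miR-484 over the 8 libraries, by Pearson's r of log2(TMM CPM + 1) among 130 miRNAs with a mean of at least 50 reads, were miR-425-5p (r = 0.98), miR-185-5p (0.96) and miR-1307-5p (0.90). miR-320a came only 28th (r = 0.70). Those most like miR-320a, looked up after the data were seen, were miR-138-5p (r = 0.91), miR-130a-3p (0.89) and miR-378a-5p (0.87), and miR-484 came 26th. The neighbours of miR-484 were the same 3 by Spearman's rho and by Pearson's r on RPM, whereas of the 3 of miR-320a only 1 was shared by Spearman's rho and 0 by Pearson's r on RPM. These are descriptions over 8 libraries that share lines, treatment and scaling. The pair of main members therefore did not have each other as nearest miRNA in these data.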

How the data were processed

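Small RNA was sequenced in 8 libraries, 2 for each line with and without etoposide. The authors trimmed reads with FASTX-toolkit (17 to 35 bases, quality 20), aligned them with SHRiMP to miRBase 20 and with Novoalign to GRCh37 (hg19 in the labels), counted them per feature and normalized with DESeq. The deposited signal is reads divided by a size factor, in 3 tables normalized separately. The deposited fold changes and p-values of the authors' own comparisons were not used. All values (100%, within 0.1 read) were whole multiples of 1 read, and the recovered reads of untreated libraries were identical between tables (0 features differed). Depth was 234545 to 579367 reads a library. Replicates differed beyond sampling noise (chi-square per degree of freedom 32.3 to 70.4).

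Each of the 3 tabled comparisons was tested on the log2 scale (normalized count + 1) with limma 3.58.1 and its trend in R 4.3.3, among miRNAs that averaged at least 3, and the others by edgeR 4.0.16 (TMM, quasi-likelihood) on recovered reads, all with Benjamini-Hochberg adjustment over all miRNAs tested. A call is an adjusted p under 0.05. The unadjusted p under 0.05 with at least 2-fold is the rule of the study. The study applied it to results of DESeq, whereas here it was applied to those of limma or edgeR, so that the counts need not match. Fold changes on the log2(value + 1) scale understate those of low miRNAs. Alternatives were pseudocounts of 0.5 and 5, other filters, equal upper quartiles, no trend, DESeq2 1.42.0, a replicate block and each library left out. Scaling by total miRNA reads, the crossed block and the contrast over both treatments were added after the data were seen. The scripts were tested on simulated data.

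The members and lists were chosen with earlier results of these data known. Named beside the members were mirtrons with a mean of at least 3 reads, rows with a member's seed, the 3 miRNAs most similar in pattern, miR-451a and miR-21-5p. Sequences are from RefSeq. Annotations are GENCODE 44 (lifted to GRCh37). Tables and plots were made with matplotlib 3.10.9, scipy 1.17.1, pandas 2.3.3 and numpy 2.4.6 under Python 3.11.15.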

Additional observations from a re-analysis of the deposited data

How the results depend on the processing

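Depth limited miR-320b (1 read) and miR-320c (78 reads) most. Replicate numbers did not pair the samples (correlation of deviations -0.17 to 0.14 between groups), so that fits with a replicate block are given here only for completeness.

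The number of miRNAs called for untreated H1299/R273H against H1299/EV was 62, and 39 without the trend, 34 with DESeq2, 0 with the replicate block, 38 with scaling by total miRNA reads and 0 to 51 with a library left out. Here miR-320a was called in 1 alternative (edgeR, log2 fold change -1.14), which made 1 member called, and ranged from -1.37 to -0.62 with a library left out, and miR-484 from -0.87 to -0.35. miR-320c turned to 0.0597 with a pseudocount of 5 and with equal upper quartiles and to 0.0469 with DESeq2, and ranged from -1.37 to 1.35 with a library left out. For etoposide in H1299/EV, 2 miRNAs were called, and 1 without the trend, with edgeR and with DESeq2, 0 with total scaling and 0 to 1 with a library left out. miR-320a turned to 0.29 with total scaling and ranged from -0.37 to 0.10 with a library left out. For etoposide in H1299/R273H, 0 were called, and 2 with a mean of at least 10, 1 with DESeq2, 3 with total scaling and 0 to 9 with a library left out. miR-320c turned to -0.41 with edgeR and -0.39 with DESeq2 and ranged from -1.15 to 1.76 with a library left out, and miR-484 turned to 0.52 with total scaling and ranged from -0.47 to 0.0935.

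Under etoposide, 75 miRNAs differed between the lines, and 47 with DESeq2, 24 with total scaling and 23 to 75 with a library left out. The 1 member called, miR-320c, became 0 with no filter (log2 fold change -1.50), DESeq2 (-1.63), limma on TMM CPM (-1.34), the replicate block (-1.62), the crossed block (-1.61), total scaling (-1.03) and a mean of at least 10, where it was not tested. It ranged from -2.37 to -0.33 with a library left out (0 to 1 members called). For the mean of both treatments, 123 miRNAs were called, and 72 with total scaling and 84 to 122 with a library left out. The 2 members called became 1, without miR-484, with DESeq2 size factors (log2 fold change of miR-484 -0.52), no filter (-0.48), a mean of at least 10 (-0.52), DESeq2 (-0.52) and the replicate block (-0.58), and 0 with total scaling (-0.38 for miR-484 and -0.67 for miR-320a), and were 1 to 3 with a library left out, with miR-484 from -0.78 to -0.45, miR-320a from -1.14 to -0.65 and miR-320c from -2.27 to 0.13. For the difference of the responses, 0 to 1 miRNAs were called with a library left out, and miR-320c ranged from -3.59 to 1.16. The cause of these changes was not tested. The block changed no other call of a member.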
